A study of Rattus norvegicus with 4 samples.

Results

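The polyamine genes studied here are 10 genes for the enzymes and regulators that make, control and break down putrescine, spermidine and spermine: Odc1, Amd1, Srm, Sms, Sat1, Oaz1, Oaz2, Azin1, Smox and Mtap. They were chosen by name, as every probe set annotated to exactly 1 gene symbol where that symbol was in this list. Of the 10 genes, 8 had such a probe set, out of 10411 genes with one on the array. Odc1, Amd1, Srm, Sms, Oaz1 and Sat1 had 1 probe set each, and Oaz2 and Azin1 had 2 each, 10 probe sets in all. The probe set that names Smox, spermine oxidase, also names another gene and was not used, and no probe set was annotated to Mtap, the methylthioadenosine phosphorylase. The 10 probe sets lay above the limit for dim probe sets, so each was tested.

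RNA came from RTEC11, a conditionally immortalized line of rat tracheal epithelial cells taken from transgenic rats, and every culture carried a large T antigen of simian virus 40 that works only at low temperature. One group was kept at the permissive 33 °C, where the antigen is active, and the other at the nonpermissive 39 °C, where it is not, both for 3 days, with 2 arrays per group. The labels give growth arrest and differentiation as the subject of the comparison. Temperature and antigen activity changed together and cannot be told apart, the results come from a single cell line, and the labels do not say whether replicates were separate cultures, so p-values speak of the variation among these 4 arrays alone, which may be technical. In bulk RNA, fewer cells of a type and less RNA per cell cannot be told apart either.

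Polyamines are small, positively charged molecules that bind RNA and DNA and that growing cells need for protein synthesis. Ornithine decarboxylase (Odc1) makes putrescine from ornithine, the first and rate-limiting step, and S-adenosylmethionine decarboxylase (Amd1) makes the aminopropyl donor. Spermidine synthase (Srm) adds an aminopropyl group to putrescine, and spermine synthase (Sms) adds another to spermidine. Antizymes (Oaz1, Oaz2) bind ornithine decarboxylase and send it to the proteasome, their translation rises with polyamines through a ribosomal frameshift, and the antizyme inhibitor (Azin1), an inactive relative of ornithine decarboxylase, takes antizyme away from the enzyme. Spermidine/spermine acetyltransferase (Sat1) starts the breakdown and export of polyamines. Antizyme and acetyltransferase activity are largely set after transcription, which these arrays do not measure.

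Across the array, 9520 probe sets were tested, and 2350 (24.7%) were lower and 2144 (22.5%) higher at 39 °C at an adjusted p under 0.05 by limma, a linear model with a variance estimate shared across probe sets. The split depended on the scaling of the arrays, with 1823 higher and 3014 lower when each array was median-centred and 1081 higher and 4371 lower when it was scaled by 24 control probe sets for poly-A spike-ins. The correlation of replicates was 0.978 for the 33 °C arrays and 0.981 for the 39 °C arrays. Of 9 airway epithelial markers, 7 lay above the dim limit, including Cdh1, Epcam, Krt8 and Krt18, while Krt5 and Foxj1 were dim. Of the other cell types' markers, 1 of 6 for fibroblasts (Col3a1), 1 of 3 for smooth muscle (Des), 0 of 3 for endothelium and 1 of 4 for leukocytes (Cd14) were above it. At 33 °C the highest log2 levels of the fibroblast and smooth muscle lists were 6.38 and 6.47, under the dim limit of 6.60. Col3a1 and Des thus passed only through their 39 °C arrays. In summed intensity, the airway epithelial list was at 57450 to 61360 at 33 °C and 67910 to 68720 at 39 °C. The summed intensity of the fibroblast list was 176 to 223 at 33 °C and 292 to 407 at 39 °C, that of the smooth muscle list 91.0 to 154 and 287 to 383, that of the endothelial list 13.6 to 36.2 and 29.7 to 120, and that of the leukocyte list 851 to 894 and 770 to 851. The part of these cell types in the results was not tested.

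Transcripts for polyamine synthesis and for its antizyme control were lower at 39 °C or did not pass the test, and none was called higher by limma (0 of 10 rose at an unadjusted p under 0.05 as well). Of the 10 probe sets, 5 were called lower, those of Odc1, Srm, Oaz1 and both of Azin1, which is 5 of 10 beside 24.7% of all probe sets tested, or 47.2% called in either direction. The arrays of the groups did not overlap for 6 of the 10, the same 5 and that of Sms, beside 74.2% of all. In this measure the list is not above the background. With the dim limit at the 60th percentile, 5 of 10 were called lower beside 1806 of 6347. With the brightest probe set per gene, 4 of 8 were, beside 1829 of 7017. Without an intensity trend in the variance, 2 of 10 were, beside 2115 of 9520, which is not above the background. The median log2 change was -0.23 over the 10, against -0.03 over all tested. By step, it was -0.40 for the 4 synthesis probe sets, -0.30 for the 5 of antizyme control and 0.07 for Sat1, the only probe set of the breakdown step. The largest change among the 10 was that of spermidine synthase.

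Among the synthesis enzymes, Srm had deposited intensities of 1979 and 1802 at 33 °C and 478.4 and 477.7 at 39 °C. Both 39 °C arrays lay far below both 33 °C arrays. After quantile normalization, as log2(intensity + 16), the level was 10.89 ± 0.09 at 33 °C and 8.90 ± 0.01 at 39 °C (SD, n = 2 each). Srm fell by 1.99 ± 0.11 (SE) on this log2 scale, which is 3.97-fold lower, with a 95% interval of -2.23 to -1.75 and an adjusted p of 2.35e-07 by limma. It ranked 28 of 9520 from the largest fall, and it was the only one of the 10 to change at least 2-fold, beside 10.9% of all probe sets tested.

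Odc1, the entry enzyme, had intensities of 5283 and 6284 at 33 °C and 3448 and 3401 at 39 °C, again without overlap. Its log2 level was 12.44 ± 0.16 at 33 °C and 11.81 ± 0.02 at 39 °C (SD, n = 2 each). It fell by 0.63 ± 0.09 (SE), or 1.55-fold lower, with an adjusted p of 2.51e-04 by limma, and 13.6% of the tested probe sets fell further. Both Odc1 and Srm were called lower in all 15 alternative analyses, with log2 changes between -1.13 and -0.52 for Odc1 and between -2.33 and -1.89 for Srm.

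The enzymes of the other synthesis steps moved much less. Amd1 had intensities of 858 and 985 at 33 °C and 892 and 851 at 39 °C, and the groups overlapped. Its log2 change was -0.11 ± 0.12 (SE), with a 95% interval of -0.36 to 0.14 and an adjusted p of 0.461 by limma. Sms, which extends spermidine to spermine, had intensities of 1827 and 1497 at 33 °C and 1458 and 1477 at 39 °C. Both 39 °C arrays were just under the lower 33 °C array. The log2 change of Sms was -0.17 ± 0.11 (SE), with an interval of -0.41 to 0.08 and an adjusted p of 0.247 by limma. Neither was called after quantile normalization or on the deposited scale, but Sms was called lower under median centring (-0.32), and both were under spike-in scaling (-0.46 for Amd1 and -0.55 for Sms), where the median over all probe sets was -0.35.

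In antizyme control, Oaz1 and Azin1, which act against each other, were both lower. Oaz1 had intensities of 15097 and 14203 at 33 °C and 11789 and 11144 at 39 °C. The groups did not overlap, and the log2 level went from 13.82 ± 0.05 to 13.52 ± 0.06 (SD, n = 2 each). The fall was 1.23-fold, with a log2 change of -0.30 ± 0.07 (SE) and an adjusted p of 0.00584 by limma. The call was lost without nonpermissive replicate 2 (-0.26, adjusted p 0.0532) and without an intensity trend in the variance (adjusted p 0.0770). Azin1 was measured by 2 probe sets, 1370191_at (2544 and 2095 at 33 °C, 1869 and 1714 at 39 °C) and 1370575_a_at (1406 and 1729 at 33 °C, 1179 and 1265 at 39 °C). In both, the 39 °C arrays lay below the 33 °C arrays. Their log2 changes, -0.34 ± 0.11 and -0.35 ± 0.12 (SE), were alike in size, with adjusted p of 0.0261 and 0.0329 by limma.

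The Azin1 calls rested on few arrays. The first was lost without permissive replicate 1 (-0.20) and without either nonpermissive array (-0.40 without replicate 1 and -0.28 without replicate 2). The second was lost without permissive replicate 2 (-0.20) and without either nonpermissive array (-0.29 and -0.40 in the same order). Both were lost as well with no filter on dim probe sets (adjusted p 0.0616 and 0.0718) and with no intensity trend (0.0968 and 0.0996). The sign was negative in each of these.

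For Oaz2, the second antizyme, the 2 probe sets gave no common direction. Probe set 1374129_at read 510 and 592 at 33 °C and 681 and 611 at 39 °C, and 1388454_at read 985 and 1121 at 33 °C and 1190 and 917 at 39 °C. After quantile normalization the groups overlapped in both. The log2 changes were 0.16 ± 0.13 and -0.04 ± 0.14 (SE), with 95% intervals of -0.13 to 0.45 and -0.34 to 0.26 and adjusted p of 0.348 and 0.825 by limma. Under spike-in scaling the values were -0.16 and -0.39, and the second was called lower.

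Sat1, the acetyltransferase of polyamine breakdown, had intensities of 13000 and 13438 at 33 °C and 13859 and 12671 at 39 °C. The 39 °C arrays lay on either side of the 33 °C arrays. Its log2 level was 13.67 ± 0.04 at 33 °C and 13.74 ± 0.10 at 39 °C (SD, n = 2 each), a change of 0.07 ± 0.08 (SE) with a 95% interval of -0.10 to 0.24 and an adjusted p of 0.459 by limma. Under spike-in scaling it was called lower (-0.38), close to the median of all probe sets under that scaling.

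**Figure D1:**
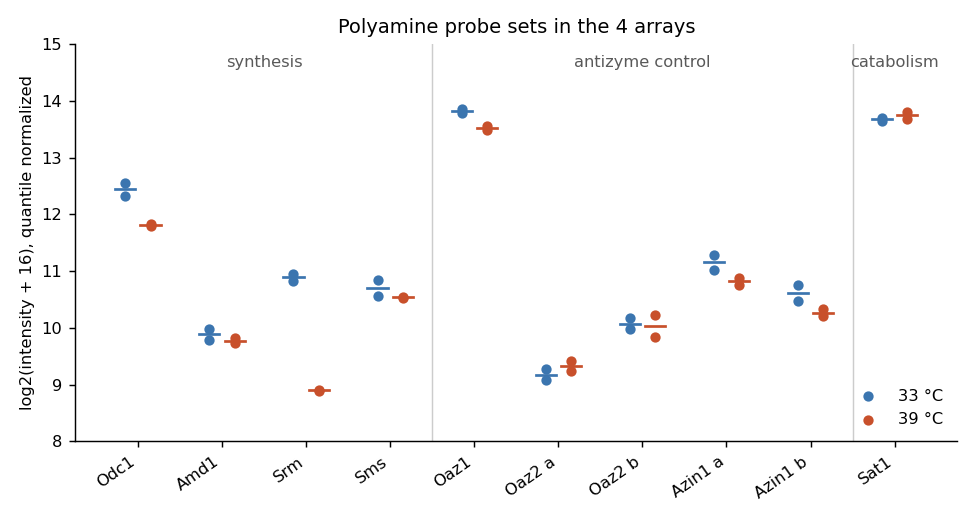
Log2(intensity + 16) after quantile normalization of the 10 polyamine probe sets (x axis, by step) in the 4 arrays. Points are arrays, blue at 33 °C and orange at 39 °C, and bars are group means of 2 arrays; a and b are the 2 probe sets of Oaz2 (1374129_at, 1388454_at) and of Azin1 (1370191_at, 1370575_a_at). Srm shows the widest gap, from 10.89 to 8.90.

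**Figure D2:**
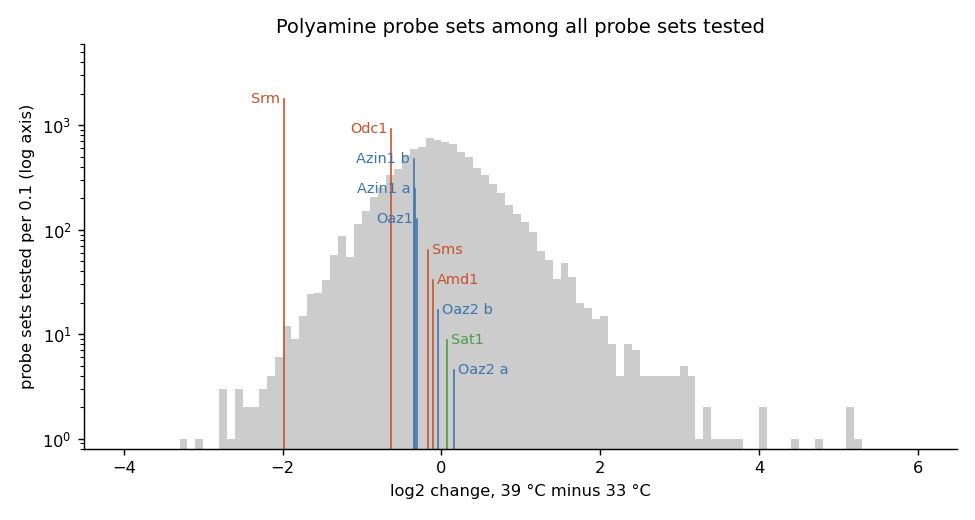
Histogram of the log2 change from 33 °C to 39 °C of the 9520 probe sets tested (x axis) with the number per 0.1 on a log axis. Vertical lines mark the 10 polyamine probe sets, orange for synthesis, blue for antizyme control and green for breakdown, and their heights only separate the names. Srm lies in the lower tail and the others within the bulk of the distribution.

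Changes were also set against each other within each array, which removes any scaling of an array as a whole. The 7 pairs were picked with earlier results known, and each had an exact two-sided permutation p of 0.333, before and after adjustment, the smallest that 2 against 2 arrays can give. Relative to Sms, Srm fell by 1.78 on the log2 scale, or 3.42-fold more, with the 39 °C arrays at -1.77 and -1.79 and the 33 °C arrays at -0.08 and 0.08 around their mean. The pair of enzymes that use the same aminopropyl donor thus changed unequally. Relative to Odc1, Srm fell by 1.20, and relative to Sat1 it fell by 1.95. Odc1 fell by 0.67 relative to Amd1, with 39 °C arrays at -0.69 and -0.65 and 33 °C arrays at -0.03 and 0.03.

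Ratios between ornithine decarboxylase and its regulators shifted less. Odc1 fell by 0.40 relative to Oaz1, with 39 °C arrays at -0.43 and -0.36 and 33 °C arrays at -0.17 and 0.17. It fell by 0.38 relative to Azin1, with 39 °C arrays at -0.44 and -0.33 and 33 °C arrays at -0.26 and 0.26. In both ratios the nearest arrays of the groups were closer together than the 33 °C arrays were to each other. Oaz1 fell by 0.34 relative to Oaz2, with 39 °C arrays at -0.49 and -0.20 and 33 °C arrays at 0.14 and -0.14, so that the groups nearly met.

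**Figure D3:**
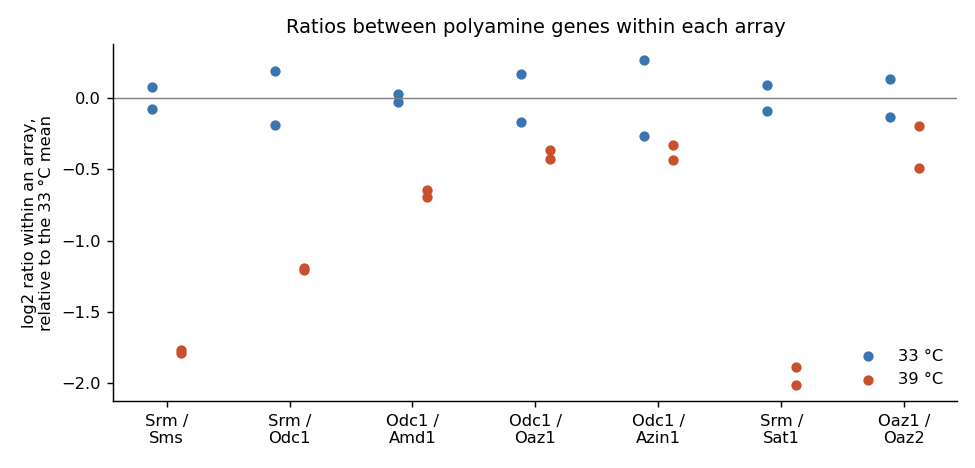
Log2 ratio of 2 polyamine genes within each array (brightest probe set of each gene, deposited scale), set relative to the mean of the 33 °C arrays. Points are arrays, blue at 33 °C and orange at 39 °C; the ratios that hold Srm moved furthest, by -1.78, -1.20 and -1.95.

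**Figure D4:**
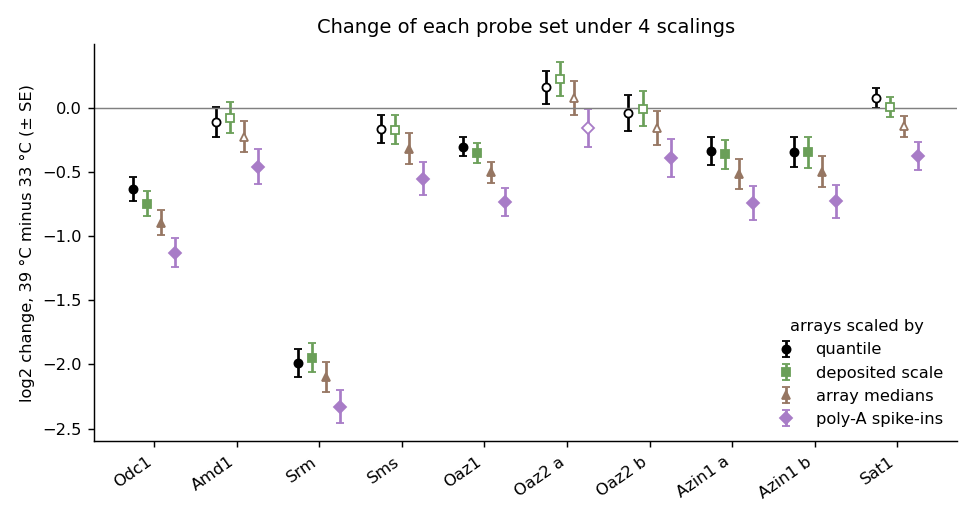
Log2 change from 33 °C to 39 °C with its SE for the 10 polyamine probe sets under 4 ways of scaling the arrays. Filled symbols passed an adjusted p of 0.05 by limma and open ones did not; Odc1, Srm, Oaz1 and both Azin1 probe sets are filled under each scaling, and Sat1 goes from 0.07 to -0.38.

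The promoter sequences of Srm, which fell most, Oaz1, which fell less, and Sat1, which was not called, are printed for comparison. They are the 250 bases before the gene's start in RefSeq, build GRCr8, 5′ to 3′ on the gene's strand. Capitals mark the letters CACGTG (the E-box bound by MYC and MAX), GGGCGG (the GC box bound by SP1) and TATAAA (the TATA box), searched on both strands, so that a GC box on the other strand reads CCGCCC.
Srm, chr5:164308752-164309001, plus strand: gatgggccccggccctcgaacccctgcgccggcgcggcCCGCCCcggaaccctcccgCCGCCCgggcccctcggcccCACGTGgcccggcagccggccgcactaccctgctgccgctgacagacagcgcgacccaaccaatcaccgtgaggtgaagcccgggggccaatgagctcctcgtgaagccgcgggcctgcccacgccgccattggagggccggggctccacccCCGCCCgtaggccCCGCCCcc
Oaz1, chr7:9536991-9537240, minus strand: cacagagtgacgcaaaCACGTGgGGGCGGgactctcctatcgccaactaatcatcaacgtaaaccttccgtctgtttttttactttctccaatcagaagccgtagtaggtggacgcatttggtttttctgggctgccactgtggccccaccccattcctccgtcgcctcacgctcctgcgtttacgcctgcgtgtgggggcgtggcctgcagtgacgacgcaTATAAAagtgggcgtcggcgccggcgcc
Sat1, chrX:44007839-44008088, plus strand: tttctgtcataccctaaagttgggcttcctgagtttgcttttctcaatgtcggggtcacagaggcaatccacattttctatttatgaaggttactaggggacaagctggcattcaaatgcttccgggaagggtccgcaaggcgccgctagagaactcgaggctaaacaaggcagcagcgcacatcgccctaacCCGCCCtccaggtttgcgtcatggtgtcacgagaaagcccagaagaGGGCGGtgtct
In windows of 250 bases before to 50 after the start, CACGTG was found in 2 of the 9 genes of the list with a window (Azin1 had none in the table). These were Srm, beginning 173 bases before the start, and Oaz1, at 234 bases before it. Odc1, which was also called lower and fell further than Oaz1, held 0 matches to CACGTG, and its sequence is not printed. Among all 33469 windows available, 6.42% held CACGTG, and of 6559 windows of genes tested on the array 9.70% did. GGGCGG occurred in 8 of the 9, beside 33.1% of all windows and 66.0% of those of tested genes, with 5 matches each in Srm and Odc1 and 3 in Sat1, each match counted even where 2 overlap. In Oaz1 the GC box overlaps no base of the E-box. TATAAA was found in Oaz1 at 28 and in Amd1 at 29 bases before the start, and 14.2% of all windows and 6.45% of those of tested genes held it. A match is a description of letters, not a binding site.

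Around the pathway, the most uniform list was the formation of hypusine, an amino acid made from spermidine and found in the translation factor eIF5A. All 3 of its tested probe sets were called lower (median log2 change -0.79), beside 24.7% of all. Deoxyhypusine synthase (Dhps), which moves the aminobutyl group of spermidine onto the factor, fell by 1.21 ± 0.12 (SE), from a log2 level of 9.91 to 8.71. Deoxyhypusine hydroxylase (Dohh), which completes the residue, fell by 0.79 ± 0.12 (SE). Eif5a, the substrate of both, fell by 0.73 ± 0.08 (SE), from 13.18 to 12.44. The adjusted p values by limma were 1.21e-05, 2.39e-04 and 3.33e-05, and all 3 were called lower in every alternative analysis.

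Of 11 tested probe sets for the supply of ornithine, 5 were called lower and 1 higher, beside 24.7% and 22.5% of all, with a median log2 change of -0.14 that became 0.04 with the dim limit at the 60th percentile. Of the 5, those of arginase 2 (Arg2), which makes ornithine from arginine, and of Slc7a1 probe set 1387167_at were under the dim limit of 6.60 at 39 °C, at 6.59 and 6.19, and passed the filter only through their levels at 33 °C, 7.86 and 7.05. Their log2 changes, -1.27 and -0.86, are therefore not sizes of a measured difference on both sides, and the count without them is 3 lower of 9. That Slc7a1 call was also lost without either nonpermissive array (-0.94 and -0.78) and with no dim filter (adjusted p 0.0715), and without either permissive array the probe set was too dim to be tested. Fewer of the list, as of all probe sets, were called lower without permissive replicate 2 or without nonpermissive replicate 2. The median log2 changes of the list were then -0.10 and -0.22. Slc7a1 encodes a carrier that brings arginine and ornithine into cells, and its brighter probe sets had log2 changes of -0.85 ± 0.11 and -0.50 ± 0.16 (SE). The second of these calls was lost without permissive replicate 2 (-0.28) and without nonpermissive replicate 2 (-0.32), with no dim filter (adjusted p 0.0813) and with no intensity trend (0.0889). Aldh18a1, which makes ornithine's precursor from glutamate, was at -0.78 ± 0.16 (SE). Oat, the mitochondrial aminotransferase that links ornithine to proline and glutamate, was called higher (0.34 ± 0.10), a call lost under median centring (0.18), without nonpermissive replicate 1 (0.27) and with no intensity trend (adjusted p 0.0599), and its sign turned under spike-in scaling (-0.051).

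For the methionine cycle and the salvage of methylthioadenosine, the by-product of Srm and Sms, 4 of 9 tested probe sets were called lower and 2 higher, beside 24.7% and 22.5% of all (median log2 change -0.30). Fewer of the list, as of all probe sets, were called lower without nonpermissive replicate 2, where the median of the list was -0.22. The catalytic subunit that makes S-adenosylmethionine, Mat2a, was lower by both probe sets, at -0.54 ± 0.14 and -0.30 ± 0.10 (SE), and the first call was lost without nonpermissive replicate 2 (-0.37). The second was lost without permissive replicate 1 (-0.25), without either nonpermissive array (-0.32 and -0.29) and with no intensity trend (adjusted p 0.0771). Its regulatory partner Mat2b went the other way, at 0.98 ± 0.11 (SE) with an adjusted p of 2.84e-05 by limma. Ahcy, which clears S-adenosylhomocysteine, was at -0.47 and the aminotransferase Got1 at -0.49. Adi1, a dioxygenase of the salvage route, was called higher (0.49), a call lost without permissive replicate 1 (0.42), without nonpermissive replicate 1 (0.40) and under spike-in scaling (0.21).

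Of 5 tested probe sets of polyamine transport, 2 were called higher and 1 lower, beside 22.5% and 24.7% of all. Their median log2 change of 0.32 had no settled sign: it was -0.02 under spike-in scaling, -0.05 with no dim filter, -0.04 with the brightest probe set per gene and 0.84 with the dim limit at the 60th percentile. Both higher ones were those of caveolin 1 (Cav1), a coat protein of caveolae that has been tied to polyamine uptake, at 1.48 ± 0.10 and 1.36 ± 0.12 (SE). Slc3a2, the heavy chain shared by several amino acid carriers, was at -0.70 ± 0.10 (SE). Atp13a2, a lysosomal polyamine pump, was at -0.39 ± 0.17 (SE) with an adjusted p of 0.0750 by limma and did not pass, though it did under spike-in scaling (-0.64) and with no intensity trend (adjusted p 0.0430).

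The last list held other polyamine enzymes together with the MYC network, whose MYC and MAX proteins bind the E-box and act on Odc1. In the Odc1 promoter window searched here, CACGTG was not found. Sequence further than 250 bases before or 50 after the start was not searched, so sites elsewhere in the gene are not covered. Of the 9 tested probe sets of the list 2 were lower and 3 higher, beside 24.7% and 22.5% of all (median log2 change -0.20). Under spike-in scaling 5 were lower and 2 higher, beside 4371 and 1081 of all 9520 probe sets. With the dim limit at the 60th percentile the median turned to 0.22. Paox, the peroxisomal oxidase that acts on the acetylated polyamines made by Sat1, fell by 1.12 ± 0.14 (SE) with an adjusted p of 5.95e-05 by limma. The difference between its change and that of Sat1 was not tested. Myc fell by 0.54 ± 0.11 (SE), from 10.12 to 9.58, while Max, at -0.53 and -0.26, did not pass. Both Max probe sets were called lower under spike-in scaling (-0.77 and -0.62), the first with no intensity trend (adjusted p 0.0134) and the second under median centring (-0.38). Mxi1, a MAX partner that competes with MYC, rose by 1.24 ± 0.11 and 0.79 ± 0.14 (SE) by its 2 probe sets. Nqo1, which binds ornithine decarboxylase and slows its degradation, rose by 0.70 ± 0.14 (SE), a call lost under spike-in scaling (0.25).

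**Figure D5:**
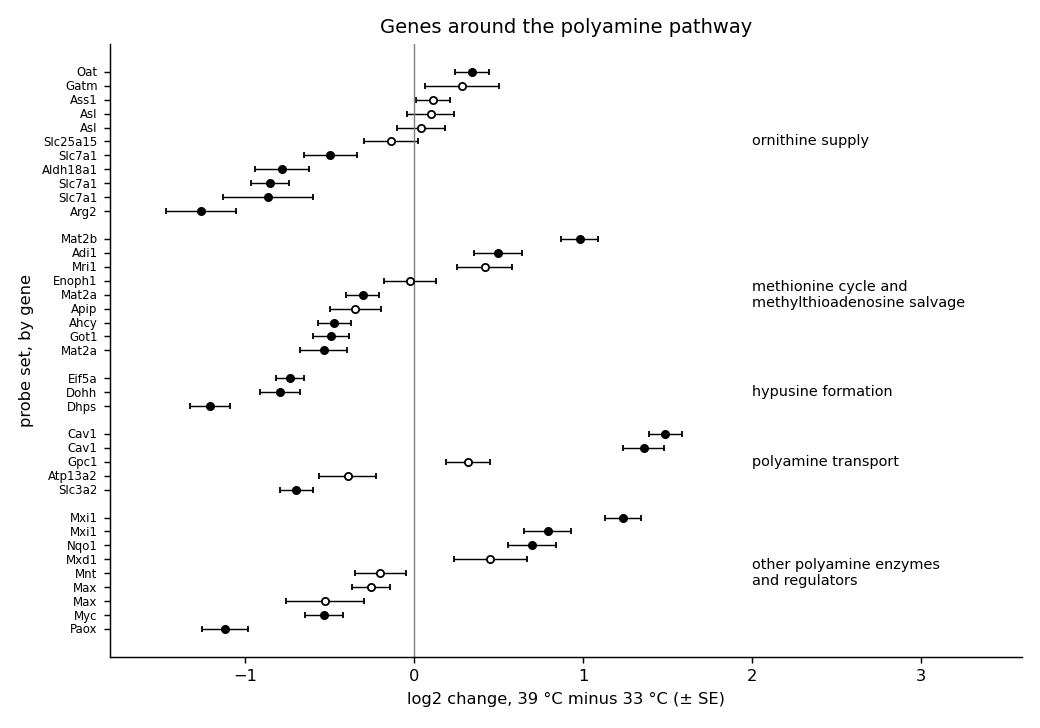
Log2 change from 33 °C to 39 °C with its SE (x axis) for each tested probe set of 5 lists of genes around the polyamine pathway (y axis, by gene). Filled points passed an adjusted p of 0.05 by limma; the 3 of hypusine formation are filled and lie below 0.

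By likeness of profile over the 4 arrays, the genes nearest to Odc1 among 8177 tested probe sets of 1 other gene were Ptpn2, Gna11, Slc66a2, Psmb2 and Spire1, at Euclidean distances of 0.03 to 0.05 on the log2 scale between profiles centred on their means. Those nearest to Srm were Ptrhd1, Mvd, Emp3, LOC102547700 and Pcbp2, at 0.06 to 0.14, with log2 changes between -1.98 and -1.89. Sat1 was nearest to Tprg1l, Rpl3, Sub1, Hdac6 and Dnajc10, at 0.01 to 0.03. With 4 arrays in 2 groups, such a profile holds little more than the change itself.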

How the data were processed

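RNA from 4 RTEC11 samples was hybridised to Affymetrix rat arrays after DNase treatment and one-cycle biotin labelling, per the labels' protocols. The authors deposited linear intensities for 15923 probe sets. From the values, the authors had scaled each array to a mean of 500.1 to 500.2 with 2% of probe sets trimmed at each end. The probe summarising software was not given in the sources used here. Values were taken as log2(intensity + 16), so fold changes of dim probe sets are understated. As array medians lay 0.17 log2 units apart, above a limit of 0.1, arrays were quantile normalized without the 57 control probe sets. Of 15866 others, 12783 had 1 gene symbol in GEO's platform annotation, 312 several and 2771 none. The 10 polyamine probe sets matched RefSeq genes (GRCr8) by Entrez identifier with unchanged symbols. Probe sets with a mean under the 40th percentile (a log2 value of 6.60, an intensity of 81.1) were left out.

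Nonpermissive and permissive arrays were compared with limma 3.58.1 in R 4.3.3 (eBayes with an intensity trend; degrees of freedom were 2 residual and 9.23 prior at the median). Tests were two-sided, adjusted by Benjamini-Hochberg over 9520 probe sets, with a threshold of 0.05. In simulated data the procedure recovered 56.7% of planted log2 changes of 0.5 and 98.5% of those of 1 and of 2. Of its 178 calls there, 9 were unplanted. Changes under 0.5, the size of those of Oaz1 and Azin1, were not planted. The members and lists were chosen with earlier results of these data known. Named were all polyamine probe sets, the 2 largest rises and falls called in each related list, the 5 nearest profiles of Odc1, Srm and Sat1, and, after their values were seen, the other called members of the related lists, Atp13a2 and Max. Replicate numbers did not pair the arrays. Python 3.11.15 with matplotlib 3.10.9 drew the figures.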

Additional observations from a re-analysis of the deposited data

How the results depend on the processing

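The alternatives were the 3 other scalings, adding 1 or 64, a dim limit at the 60th percentile or none, the brightest probe set per gene, leaving out probe sets ending in _x_at or _s_at, a variance without intensity trend, a replicate block, and the omission of 1 array at a time. Of 410 recomputed values of called probe sets, 378 kept their direction and call, 31 lost the call and 1 reversed (Oat, -0.051 with spike-in scaling). Of 10 polyamine probe sets, 5 were lower in the main analysis, 3 without a filter on dim probe sets, 2 without an intensity trend, 9 under spike-in scaling, and 2 to 4 with 1 array left out (3 without nonpermissive replicate 1, 2 without nonpermissive replicate 2). Over all probe sets tested, 2350 of 9520 were called lower in the main analysis and 2006 of 15866 without the dim filter. The counts were 2115 of 9520 without the trend and 4371 of 9520 under spike-in scaling. Without the trend, the polyamine list was thus not above the background. With 1 array left out, 1 group holds a single array, so those counts were not set beside the background. No polyamine probe set was called higher by limma in any of these analyses, and 0 of the 10 had a rise at an unadjusted p under 0.05 in the main analysis. With spike-in scaling 1081 probe sets were higher and 4371 lower over the array, the step medians were -0.84 for synthesis, -0.73 for antizyme control and -0.38 for Sat1, and the Sat1 change was thus reversed to -0.38. With arrays centred on their medians the step medians were -0.61, -0.50 and -0.14, and on the deposited scale that of synthesis was -0.46. Leaving out 1 array gave -0.48 to -0.39 for synthesis and -0.29 to -0.20 for antizyme control. The cause of these shifts was not tested. Median centring and spike-in scaling each add 1 constant per array to the deposited scale and leave its ratios within an array as they were. Quantile normalization does not (Odc1 was at -0.63 after it and -0.75 on the deposited scale). With a replicate block, 5 polyamine probe sets were called lower and 4857 probe sets were called over the array, against 5 and 4494. The arrays share only a number (correlation of deviations -0.01). The number of arrays, 2 per group, limits the precision. The 95% intervals in the report hold for quantile normalized arrays only. Under spike-in scaling the values of all 10 polyamine probe sets lie below their intervals, that of Srm included (-2.33 against a lower limit of -2.23).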

Other observations

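Over the whole array, the E-box letters CACGTG were found in the promoter windows of 209 of 1758 genes (11.9%) with a probe set called lower at 39 °C and none called higher, in 133 of 1507 (8.83%) with a probe set called higher and none lower, and in 291 of 3262 (8.92%) tested and not called. The GC box letters GGGCGG were found in 65.3%, 65.4% and 66.7% of the same groups. The polyamine genes Srm and Oaz1 are among the 209, while Odc1, also called lower, is not. These shares describe letters in windows of 250 bases before to 50 after a start, with no test.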
